A study of Mus musculus with 12 samples.

Results

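Messenger RNA of 37 genes of sugar breakdown was followed through gonadal white adipose tissue of mice, a visceral fat depot. The set holds the carriers that bring glucose into the cell, the enzymes of glycolysis with their isoforms, the enzymes and carriers of lactate, the pentose phosphate pathway, and the kinases that switch pyruvate dehydrogenase off. Members were the rows of both deposited count tables whose gene symbol is one of the 37. They made 38 rows, because Aldoa stands on 2 gene IDs, out of 28008 genes listed in both tables. All 38 rows passed the filter on low counts in all comparisons. The mice were C57BL/6N, an inbred strain, and entered the study at 6 weeks of age for 18 weeks of feeding. HFD PCN mice (3 libraries) ate a high-fat diet and were injected into the abdomen with pregnenolone carbonitrile (PCN) at 50 mg/kg once a day for 4 days. PCN is a steroid that activates the pregnane X receptor of rodents. HFD Vehicle mice (3 libraries) had the same diet and 4 days of injections of the carrier, 30% dimethyl sulfoxide in corn oil. HFD mice (3 libraries) had the high-fat diet and Chow mice (3 libraries) regular chow, both with no treatment given in the labels. Whether each library came from its own animal is not stated in the labels, and p-values therefore cover only the variation among these libraries, which may be technical.

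Glycolysis splits glucose into pyruvate. Its pace is set by glucose carriers, hexokinase, phosphofructokinase and pyruvate kinase, and most of its steps have several isoforms that differ between tissues. Lactate dehydrogenase turns pyruvate into lactate, pyruvate dehydrogenase passes it to the mitochondrion, and the pentose phosphate pathway branches off to make NADPH for fatty acid synthesis and antioxidant defence, and ribose for nucleotides. In adipocytes insulin drives glucose uptake and glycolysis also yields the glycerol backbone of stored fat, while macrophages and dividing cells are known for high rates of glycolysis.

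For 4 steps with isoforms that moved in opposite directions between HFD and Chow, the promoter of the isoform that was higher in HFD is shown first and that of the lower one after it. The sequences are those of RefSeq for GRCm38.p6, 300 bases each, from 250 bases before to 50 bases after the start of the most upstream transcript listed, on the strand of the gene. Capitals mark ACGTG or its reverse complement CACGT, the core letters of the element bound by hypoxia-inducible factors and part of the E-box CACGTG.
Hk3 (chr13:55021336-55021635, minus strand): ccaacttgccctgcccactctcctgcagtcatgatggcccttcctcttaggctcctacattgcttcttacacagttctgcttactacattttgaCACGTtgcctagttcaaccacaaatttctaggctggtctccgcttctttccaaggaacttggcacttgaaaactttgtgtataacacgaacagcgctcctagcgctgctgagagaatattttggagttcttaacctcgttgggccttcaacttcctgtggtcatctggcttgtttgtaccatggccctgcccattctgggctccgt
Hk2 (chr6:82774405-82774704, minus strand): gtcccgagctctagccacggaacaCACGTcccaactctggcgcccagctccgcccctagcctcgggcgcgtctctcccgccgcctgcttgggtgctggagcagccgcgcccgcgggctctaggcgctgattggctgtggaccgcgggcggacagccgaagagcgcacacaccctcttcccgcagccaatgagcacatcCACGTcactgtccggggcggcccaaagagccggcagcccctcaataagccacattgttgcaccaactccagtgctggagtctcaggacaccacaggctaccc
Pfkfb4 (chr9:108991652-108991951, plus strand): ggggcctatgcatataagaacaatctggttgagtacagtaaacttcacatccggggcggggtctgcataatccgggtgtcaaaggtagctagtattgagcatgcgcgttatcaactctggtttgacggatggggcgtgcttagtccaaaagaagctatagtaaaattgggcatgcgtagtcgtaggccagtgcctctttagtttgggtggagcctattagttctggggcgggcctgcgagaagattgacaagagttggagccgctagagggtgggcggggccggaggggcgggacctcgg
Pfkfb3 (chr2:11553880-11554179, minus strand): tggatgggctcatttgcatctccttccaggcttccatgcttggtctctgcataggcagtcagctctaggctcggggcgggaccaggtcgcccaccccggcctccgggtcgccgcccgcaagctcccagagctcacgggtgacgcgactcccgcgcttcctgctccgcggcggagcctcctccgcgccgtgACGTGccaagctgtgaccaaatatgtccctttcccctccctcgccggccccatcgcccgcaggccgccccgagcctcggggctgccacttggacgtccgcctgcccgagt
Ldha (chr7:46845554-46845853, plus strand): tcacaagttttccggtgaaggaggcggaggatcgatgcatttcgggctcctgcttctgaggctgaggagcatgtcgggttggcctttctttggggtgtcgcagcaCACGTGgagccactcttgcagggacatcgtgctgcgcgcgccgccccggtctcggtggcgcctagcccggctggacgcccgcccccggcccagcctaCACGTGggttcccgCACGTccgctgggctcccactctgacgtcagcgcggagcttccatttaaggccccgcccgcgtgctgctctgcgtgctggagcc
Ldhb (chr6:142507908-142508207, minus strand): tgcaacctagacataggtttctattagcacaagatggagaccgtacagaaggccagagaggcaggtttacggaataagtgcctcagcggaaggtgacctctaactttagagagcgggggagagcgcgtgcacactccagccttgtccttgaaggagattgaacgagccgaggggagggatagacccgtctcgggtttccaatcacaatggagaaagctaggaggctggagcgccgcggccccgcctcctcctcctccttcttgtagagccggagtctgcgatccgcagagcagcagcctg
Pdk1 (chr2:71872974-71873273, plus strand): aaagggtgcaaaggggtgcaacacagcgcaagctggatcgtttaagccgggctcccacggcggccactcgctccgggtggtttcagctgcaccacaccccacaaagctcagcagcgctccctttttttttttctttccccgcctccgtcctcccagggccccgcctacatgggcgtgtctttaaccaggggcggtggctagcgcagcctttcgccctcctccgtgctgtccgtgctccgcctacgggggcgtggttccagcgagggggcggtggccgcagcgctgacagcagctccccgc
Pdk2 (chr11:95041322-95041621, minus strand): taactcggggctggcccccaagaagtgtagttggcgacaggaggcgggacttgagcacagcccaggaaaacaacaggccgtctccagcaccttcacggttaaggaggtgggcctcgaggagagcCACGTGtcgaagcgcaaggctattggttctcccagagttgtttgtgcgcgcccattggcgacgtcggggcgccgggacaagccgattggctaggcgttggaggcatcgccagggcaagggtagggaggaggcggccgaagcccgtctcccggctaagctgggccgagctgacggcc
The letters stood in the windows shown of both hexokinase genes, of Pfkfb3, of Ldha and of Pdk2, and in those of Pfkfb4, Ldhb and Pdk1 not at all. Ldha, the lactate dehydrogenase subunit, held 5 matches, some of them overlapping, the most of the 8 windows. A promoter was found for 36 of the 37 members (all but Slc2a3), and 18 of these genes (50.0%) held the letters on either strand in at least 1 window, against 5886 of 27025 genes with a promoter (21.8%) and 19.6% of all 32851 windows. The share was 47.8% of the 23 members that rose in HFD (11 genes), 50.0% of the 6 that fell (3 genes) and 57.1% of the 7 that did not pass (4 genes). The whole E-box CACGTG was in 5 of 36 members (13.9%), against 8.09% of all genes. A match is a description of letters and not of a bound site.

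Libraries held 11090117 to 27408092 counts. The source label of the samples says duodenum, whereas the series title names gonadal white adipose tissue. Summed over 10 adipocyte markers the level was 6475 to 23889 CPM (each library's counts set to a common scaled total over the 12 libraries), against 10.2 to 55.2 CPM over the 4 intestinal markers listed in both tables, of which Lgals4 held the largest part. No adipocyte marker was at 0 in all libraries, and 1 of 6 epididymis and testis markers was in both tables, at 0.0747 CPM at most. HFD Vehicle 50 differed from both other libraries of its group: its 10 macrophage markers summed to 1175 CPM, against 9596 and 12210 CPM in HFD Vehicle 23 and 55 and 537 to 1521 CPM in Chow, so the tests that involve HFD Vehicle were also run without it. All values below are shares of a tissue library, in which fewer cells of a type and less RNA per cell cannot be told apart.

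**Figure D1:**
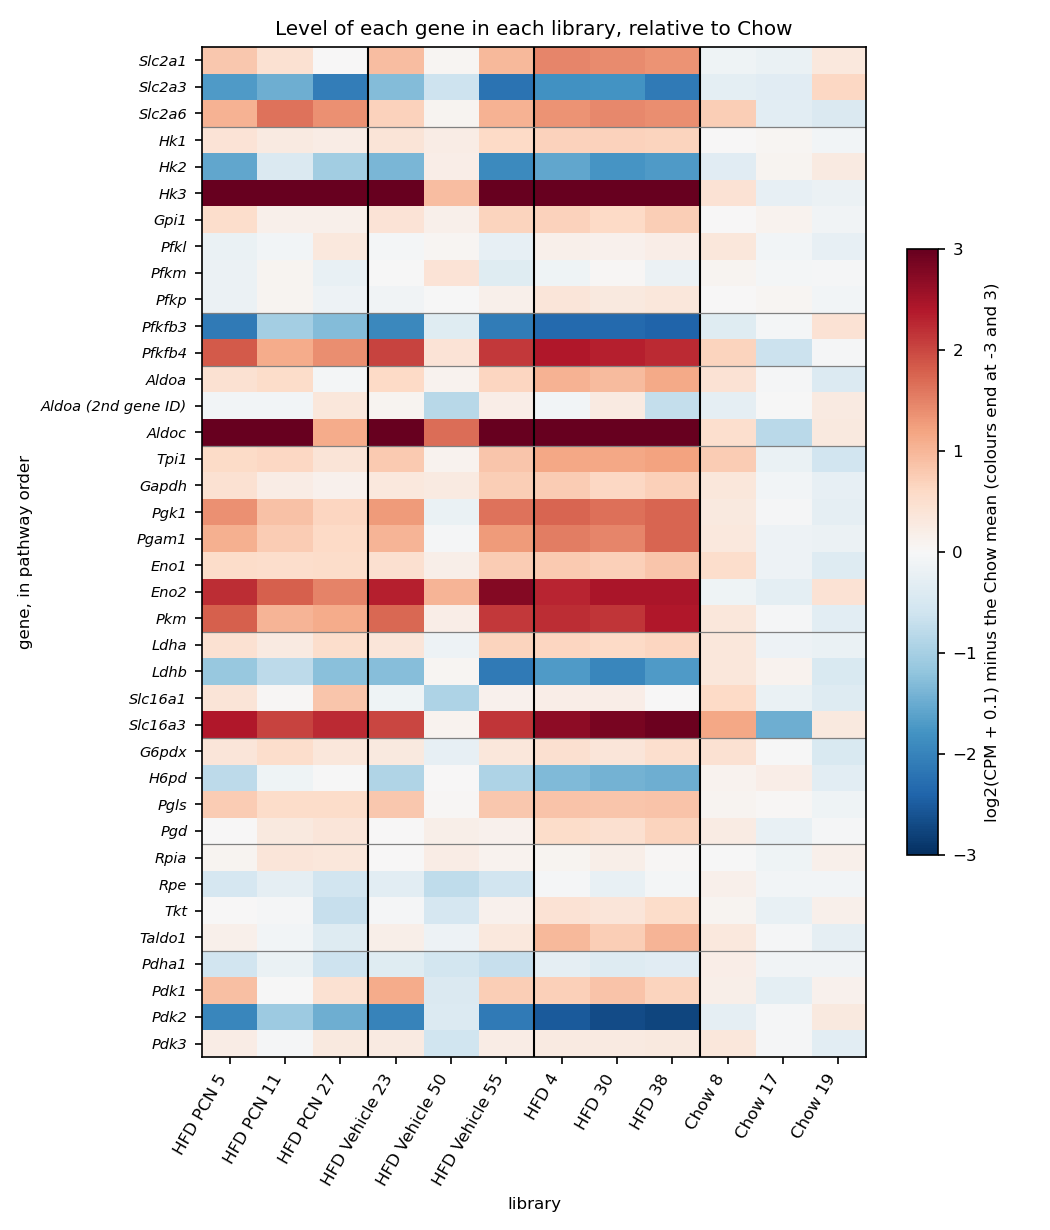
Level of each of the 38 rows in each of the 12 libraries, as log2 of CPM + 0.1 minus the mean of the 3 Chow libraries, with red above and blue below that mean; colours end at -3 and 3, and rows run in pathway order. The HFD columns are the most strongly coloured, HFD Vehicle 50 is nearly as pale as the Chow columns, and the HFD PCN columns lie in between for most rows.

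The first comparison asked what the high-fat diet changed. In HFD mice the lower part of glycolysis, from Tpi1 to Pkm, was higher in all 7 genes, while isoforms within single steps split: Slc2a1, Hk3, Pfkfb4, Ldha and Pdk1 rose and Slc2a3, Hk2, Pfkfb3, Ldhb and Pdk2 fell. Of 38 rows 30 passed an adjusted p of 0.05 (quasi-likelihood test of edgeR over all genes), 23 higher and 7 lower in HFD. This is 78.9% of the rows, against 59.8% of the 16216 genes tested, and 29.8% of those were higher and 30% lower. Changes ran between -2.70 (Pdk2) and 5.34 (Aldoc) on the log2 scale with a median of 0.61, against a median of -0.03 over all genes tested. Of the called rows 17 changed by at least 1 on the log2 scale, and the share of all genes at that cut was not computed. On the scale of their own 6 libraries, HFD and Chow did not overlap in 31 rows, against 68.5% of all genes, with HFD above Chow in 23 (34.6% of all genes) and below it in 8 (33.9%). On the scale of 12 libraries, on which levels are printed, 30 rows did not overlap, without Rpe.

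**Figure D2:**
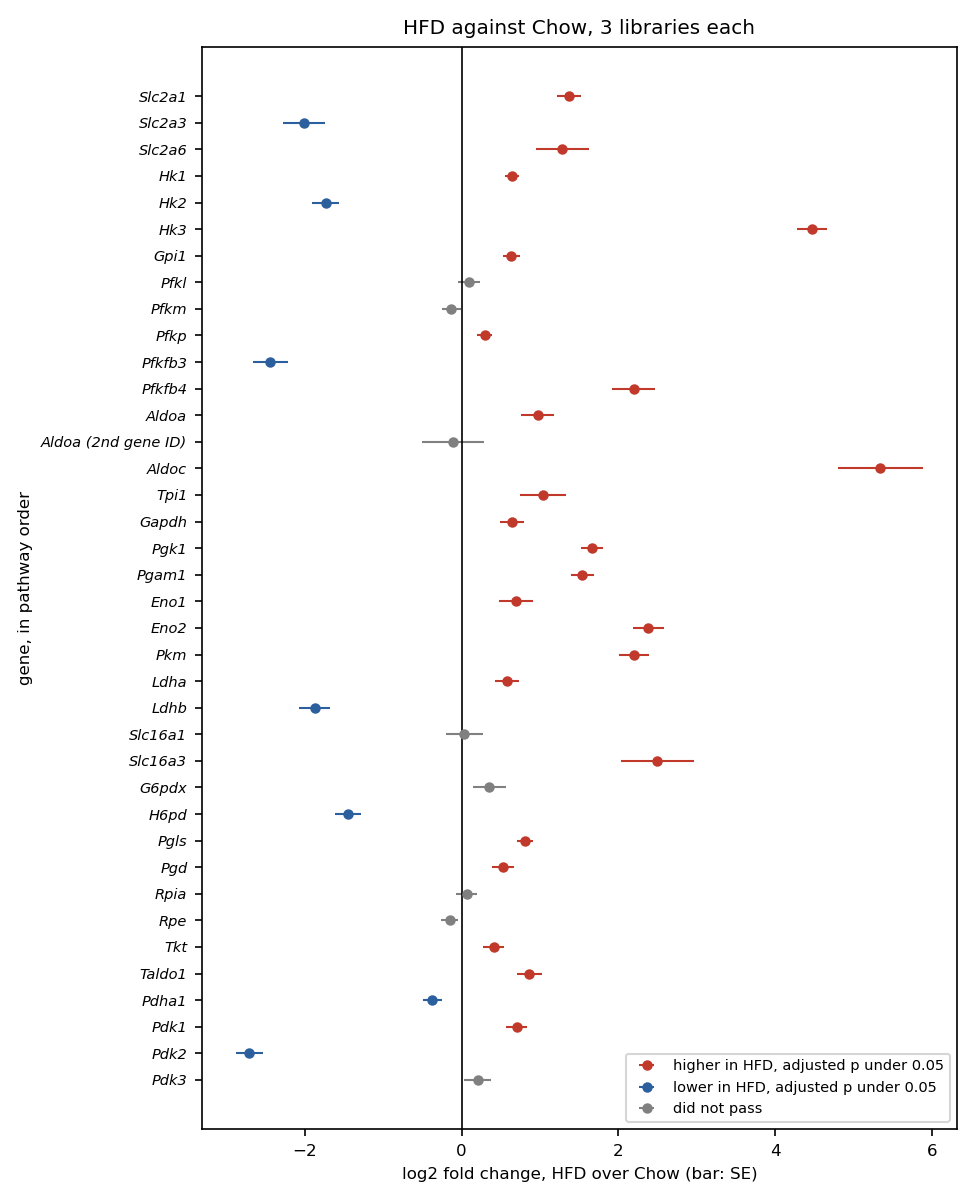
Log2 fold change of HFD over Chow with its standard error (bars) for the 38 rows in pathway order, 3 libraries in each group; red rose, blue fell and grey did not pass an edgeR adjusted p of 0.05. Aldoc at 5.34 and Hk3 at 4.47 are farthest to the right, and Pdk2 at -2.70 and Pfkfb3 at -2.44 farthest to the left.

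Glucose carriers split in direction. Slc2a3, a high-affinity carrier best known from neurons (ENSMUSG00000003153, GRCm38 chromosome 6, 122727809 to 122801640), was at 9.42, 9.69 and 7.60 CPM in HFD 4, 30 and 38, against 27.5, 26.6 and 51.6 CPM in Chow 8, 17 and 19. Every HFD library lay below every Chow library, and the fall was 2.01 on the log2 scale (SE 0.27, edgeR adjusted p = 3.74e-04). Slc2a1, the basal glucose carrier of many cell types, rose to 32.1 ± 1.31 CPM in HFD libraries, against 12.2 ± 2.43 CPM in Chow (SD, n = 3 in each group, here and below; log2 fold change 1.37, edgeR adjusted p = 1.39e-04). Slc2a6, a carrier found in lysosomes of immune cells, rose by 1.28 on the log2 scale (3.10 ± 0.0924 CPM in HFD libraries and 1.21 ± 0.637 CPM in Chow). Per kilobase of exon, Slc2a1 made 80.7% ± 0.823 of the sum of the 3 carriers in HFD and 40.5% ± 3.41 in Chow, and Slc2a3 10.8% ± 0.969 in HFD and 54.8% ± 5.72 in Chow.

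Hexokinase, which traps glucose in the cell, showed the widest exchange of isoforms. Hk3, the hexokinase typical of myeloid cells (ENSMUSG00000025877, chromosome 13, 55005985 to 55021385), was at 245, 236 and 269 CPM in HFD 4, 30 and 38, against 14.4, 8.97 and 9.36 CPM in Chow 8, 17 and 19. That is a 22.2-fold rise (log2 fold change 4.47, SE 0.19, edgeR adjusted p = 5.10e-06), the smallest p of all members. Hk2, the insulin-responsive hexokinase of fat and muscle (ENSMUSG00000000628, chromosome 6, 82725025 to 82774454), was at 68.9, 59.1 and 62.7 CPM in HFD, against 159, 213 and 245 CPM in Chow. All HFD libraries lay below all Chow libraries (log2 fold change -1.73, SE 0.17, edgeR adjusted p = 8.45e-05). The ubiquitous Hk1 rose by 0.64 to 77.5 ± 0.988 CPM in HFD libraries, against 48.5 ± 2.28 CPM in Chow. Per kilobase, Hk3 made 77.4% ± 1.39 of the 3 hexokinases in HFD and 7.17% ± 3.12 in Chow, Hk2 12.2% ± 0.959 in HFD and 79.4% ± 5.35 in Chow, and Hk1 10.4% ± 0.663 in HFD and 13.4% ± 2.39 in Chow.

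The next steps moved less. Gpi1, the isomerase, rose by 0.64 (303 ± 13.6 CPM in HFD libraries and 190 ± 14.1 CPM in Chow). Of the 3 phosphofructokinases, which commit sugar to glycolysis, the platelet type Pfkp was at 147 ± 2.90 CPM in HFD libraries and 117 ± 5.88 CPM in Chow, a rise of 0.29 (edgeR adjusted p = 0.0291). The liver type Pfkl (92.3 ± 2.25 CPM in HFD libraries, 84.2 ± 18.0 CPM in Chow) and the muscle type Pfkm (13.6 ± 1.04 CPM in HFD libraries, 14.5 ± 0.753 CPM in Chow) did not pass, with edgeR adjusted p = 0.586 and adjusted p = 0.389. Per kilobase Pfkl made 48.0% ± 0.846 of the 3 in HFD and 48.8% ± 4.43 in Chow. Pfkp was not called with any HFD library left out or under upper quartile scaling (log2 fold change at least 0.20 in all alternatives).

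The bifunctional kinase/phosphatases that set the level of the sugar bisphosphate activating phosphofructokinase went opposite ways. Pfkfb3 (ENSMUSG00000026773, chromosome 2, 11471433 to 11554077) was at 266, 269 and 254 CPM in HFD 4, 30 and 38, against 1042, 1285 and 1827 CPM in Chow 8, 17 and 19. Pfkfb4 (ENSMUSG00000025648, chromosome 9, 108991778 to 109032228) was at 84.4, 80.3 and 74.3 CPM in HFD, against 25.3, 10.01 and 15.5 CPM in Chow. Neither gene had overlapping groups: Pfkfb3 fell by 2.44 (SE 0.23, edgeR adjusted p = 6.21e-05) and Pfkfb4 rose by 2.20 (SE 0.28, edgeR adjusted p = 2.73e-04). Per kilobase Pfkfb4 made 32.0% ± 0.929 of the pair in HFD and 2.04% ± 1.38 in Chow.

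Aldolase, which splits the sugar into trioses, is mostly Aldoa. Aldoa rose to 1071 ± 69.2 CPM in HFD libraries, against 534 ± 159 CPM in Chow (log2 fold change 0.97, edgeR adjusted p = 0.00470), and its row on the gene ID ENSMUSG00000114515 stood at 0.37 to 0.95 CPM over all 12 libraries and did not pass (edgeR adjusted p = 0.825). Aldoc, the isoform typical of brain (ENSMUSG00000017390, chromosome 11, 78322968 to 78327781), had 81, 117 and 79 counts in HFD 4, 30 and 38, against 2, 0 and 1 counts in Chow 8, 17 and 19. With 3 counts over the Chow group the scaled ratio was 42.7, with a 95% counting interval of 14.5 to 208 that covers counting error only (edgeR adjusted p = 9.01e-05). Even in HFD Aldoc made 0.323% ± 0.0675 of aldolase per kilobase, against 0.0150% ± 0.0135 in Chow.

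All 7 genes of the lower part, where ATP is gained, were higher in HFD, with no overlap between groups. Pkm, pyruvate kinase (ENSMUSG00000032294, chromosome 9, 59656368 to 59679375), was at 891, 857 and 1013 CPM in HFD 4, 30 and 38, against 244, 189 and 155 CPM in Chow 8, 17 and 19 (log2 fold change 2.20, SE 0.19, edgeR adjusted p = 3.99e-05). Pgk1, phosphoglycerate kinase (ENSMUSG00000062070, chromosome X, 106187100 to 106203699), was at 165, 156 and 166 CPM in HFD, against 60.5, 48.3 and 40.9 CPM in Chow (log2 fold change 1.67, SE 0.14, edgeR adjusted p = 4.15e-05). The groups were far apart in Pkm and Pgk1. The SD was 8.93% and 3.46% of the mean in HFD and 23.1% and 19.8% in Chow. Eno2, the enolase best known from neurons (ENSMUSG00000004267, chromosome 6, 124760053 to 124769673), was at 21.8, 24.4 and 24.3 CPM in HFD, against 3.96, 3.53 and 5.94 CPM in Chow (log2 fold change 2.38, SE 0.20, edgeR adjusted p = 3.46e-05). The common enolase Eno1 rose by 0.69 (344 ± 13.5 CPM in HFD libraries, 208 ± 73.1 CPM in Chow), a call that was lost with any library but Chow 8 left out. Pgam1, phosphoglycerate mutase, rose by 1.54, Tpi1, triose phosphate isomerase, by 1.04, and Gapdh, a gene often used to normalise other measurements, by 0.65 (275 ± 12.5 CPM in HFD libraries, 172 ± 37.8 CPM in Chow). Tpi1 was not called without Chow 17 (edgeR adjusted p = 0.0563) or in the test against a fold of 1.5 (edgeR adjusted p = 0.0813). Per kilobase Aldoa (368 in HFD, 183 in Chow), Pkm (184 in HFD, 39.1 in Chow) and Ldha (141 in HFD, 91.9 in Chow) were the most abundant members in HFD, in CPM per kilobase.

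**Figure D3:**
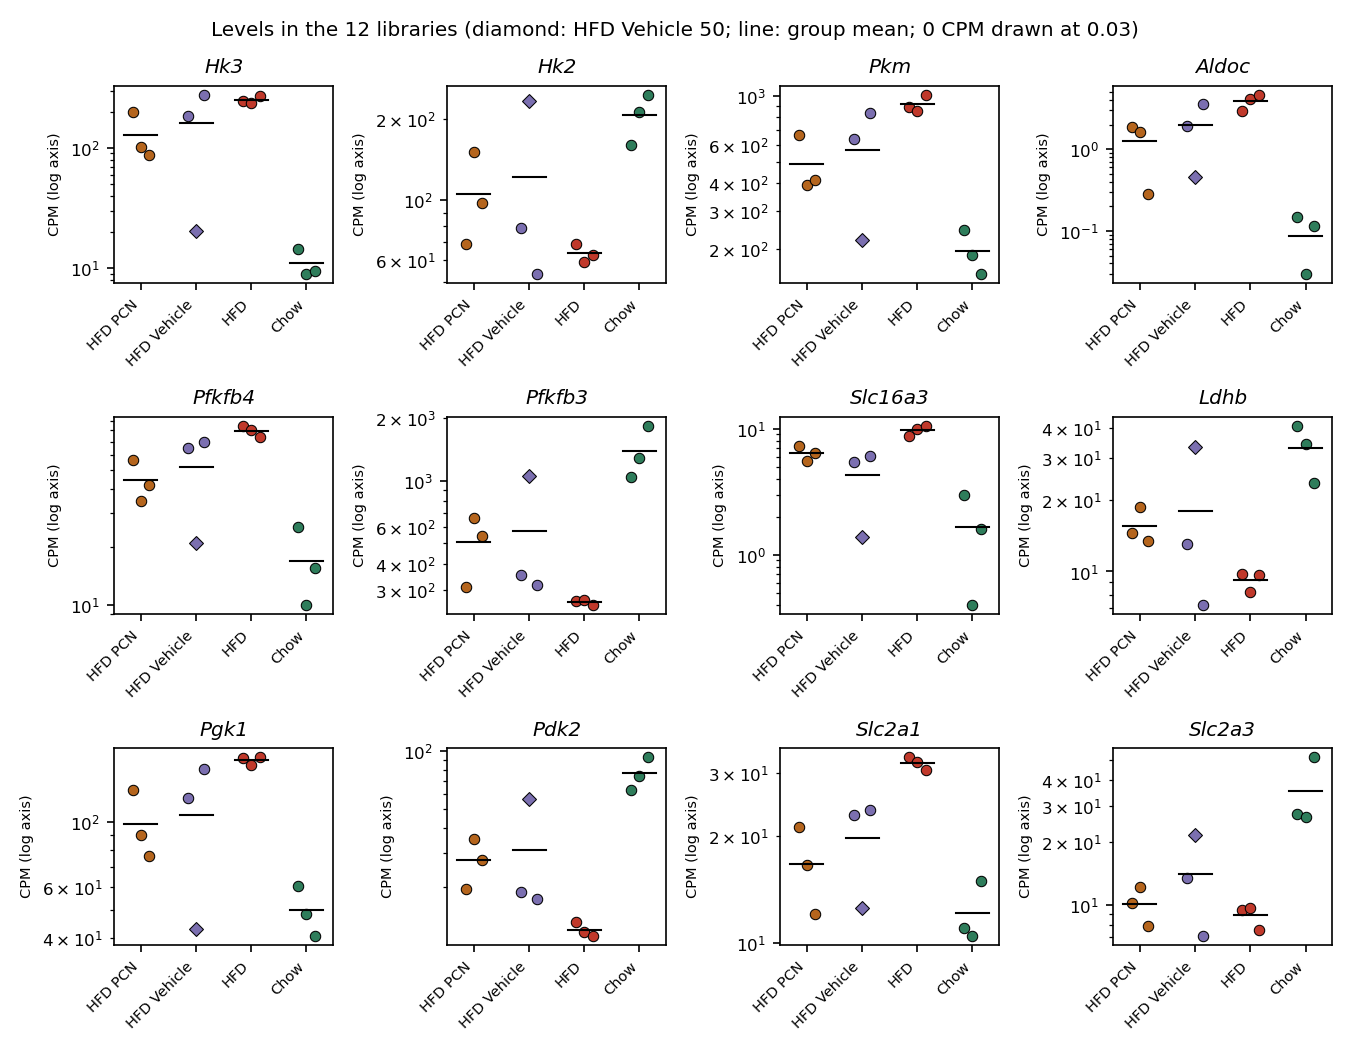
CPM on a log axis for 12 members in each library, with HFD PCN, HFD Vehicle, HFD and Chow from left to right; lines are group means, the diamond is HFD Vehicle 50, and 0 CPM is drawn at 0.03. HFD and Chow do not overlap in any panel, and HFD Vehicle 50 lies near Chow in most, such as 20.2 CPM of Hk3.

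At the exit to lactate the subunits parted. Ldhb, the subunit of heart (ENSMUSG00000030246, chromosome 6, 142490249 to 142507957), was at 9.71, 8.21 and 9.71 CPM in HFD 4, 30 and 38, against 40.7, 34.3 and 23.4 CPM in Chow 8, 17 and 19. It fell by 1.87 (SE 0.20, edgeR adjusted p = 1.11e-04), with every HFD library below every Chow library. Ldha, the subunit of muscle and glycolytic cells, rose by 0.58 (466 ± 10.4 CPM in HFD libraries, 304 ± 65.3 CPM in Chow, edgeR adjusted p = 0.0127). Slc16a3, the lactate exporter of glycolytic cells (ENSMUSG00000025161, chromosome 11, 120948480 to 120960868), was at 8.81, 9.90 and 10.5 CPM in HFD, against 2.99, 0.401 and 1.60 CPM in Chow (log2 fold change 2.497, SE 0.47, edgeR adjusted p = 0.00214). The broader carrier Slc16a1 was at 56.6 ± 4.08 CPM in HFD libraries and 53.9 ± 21.2 CPM in Chow, short of the threshold (log2 fold change 0.04, SE 0.23, edgeR adjusted p = 0.899). Without Chow 8, the highest of the HFD and Chow libraries in Slc16a1 at 78.1 CPM, it was called higher at 0.41, and so were Pfkl, G6pdx and Pdk3, for 34 called rows. In that fit 10889 of 16670 genes were called.

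In the pentose phosphate pathway H6pd, the enzyme of the endoplasmic reticulum that feeds NADPH to steroid activation, was the 1 member that fell, to 291 ± 16.6 CPM in HFD against 776 ± 140.5 CPM in Chow (log2 fold change -1.45, SE 0.17, edgeR adjusted p = 1.63e-04). Its cytosolic counterpart G6pdx, the entry enzyme, was at 274.5 ± 14.3 CPM in HFD libraries and 210 ± 67.0 CPM in Chow, short of the threshold (log2 fold change 0.36, SE 0.21, edgeR adjusted p = 0.171). Pgls and Pgd, which complete the oxidative branch, rose by 0.81 and 0.53. Pgls was at 45.2, 44.5 and 45.3 CPM in HFD 4, 30 and 38, against 26.4, 25.6 and 22.9 CPM in Chow 8, 17 and 19, with no overlap. In the branch that rearranges sugars, Taldo1 rose by 0.86 (280 ± 27.6 CPM in HFD libraries, 150 ± 30.7 CPM in Chow) and Tkt by 0.41 (386 ± 26.8 CPM in HFD libraries, 283 ± 37.0 CPM in Chow). The isomerase Rpia and the epimerase Rpe did not pass. Rpe was at 52.9, 46.4 and 51.9 CPM in HFD 4, 30 and 38, against 60.8, 51.0 and 51.7 CPM in Chow 8, 17 and 19 (log2 fold change -0.15, SE 0.11, edgeR adjusted p = 0.257). Its groups overlapped on this scale and were just apart on the scale of the 6 HFD and Chow libraries. Tkt was not called without Chow 17, without any HFD library, under upper quartile scaling or with all 12 libraries in 1 fit.

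At the gate to the mitochondrion the largest fall of all members was that of Pdk2, a widely expressed kinase of pyruvate dehydrogenase (ENSMUSG00000038967, chromosome 11, 95026258 to 95041354). It was at 13.2, 11.7 and 11.2 CPM in HFD 4, 30 and 38, against 63.2, 74.0 and 93.0 CPM in Chow 8, 17 and 19 (log2 fold change -2.70, SE 0.17, edgeR adjusted p = 1.27e-05). Pdk1, a kinase known as a target of hypoxia-inducible factor, rose by 0.70 (52.6 ± 3.52 CPM in HFD libraries, 31.6 ± 5.47 CPM in Chow), and Pdk3 did not pass (edgeR adjusted p = 0.326). Pdk1 was not called with all 12 libraries in 1 fit (edgeR adjusted p = 0.091) or in the test against a fold of 1.5 (edgeR adjusted p = 0.185). Per kilobase Pdk2 made 24.0% ± 1.84 of the 3 kinases in HFD and 73.6% ± 6.41 in Chow. Pdha1, the catalytic subunit that these kinases phosphorylate, fell by 0.37 (155 ± 6.70 CPM in HFD libraries, 196 ± 24.8 CPM in Chow, edgeR adjusted p = 0.0242). DESeq2, the authors' deposited table and 6 further alternatives did not call Pdha1.

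Ratios of 2 members within a library need no scaling between libraries. Of 17 ratios set out for isoforms and branches, 12 did not overlap between HFD and Chow, 6 higher and 6 lower in HFD. Levels of single genes did not overlap in 68.5% of all genes tested, and a share over other pairs was not computed. The smallest two-sided p of the exact permutation test over 3 against 3 libraries is 0.1. These 12 ratios reached it (adjusted p = 0.142 over the 17), so none could pass 0.05. The log2 ratio of Pfkfb4 to Pfkfb3 was -1.72 ± 0.0614 in HFD and -6.41 ± 0.911 in Chow, a difference of 4.69 (SD, n = 3 each). Aldoc over Aldoa differed by 4.10, Hk3 over Hk1 by 3.86, Slc16a3 over Slc16a1 by 2.77 and Eno2 over Eno1 by 1.64. The ratios of Pdk2 to Pdk1, Slc2a3 to Slc2a1, Ldhb to Ldha, Hk2 to Hk1 and H6pd to G6pdx were lower in HFD, with differences of -3.40, -3.33, -2.43, -2.35 and -1.84. Between branches, Ldha over Pdha1 was higher by 0.96 and Tkt over Aldoa lower (difference -0.59), while G6pdx over Gpi1 overlapped, as did Slc2a6 over Slc2a1, Pfkp over Pfkl, Pfkm over Pfkl and Pdk3 over Pdk1.

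**Figure D4:**
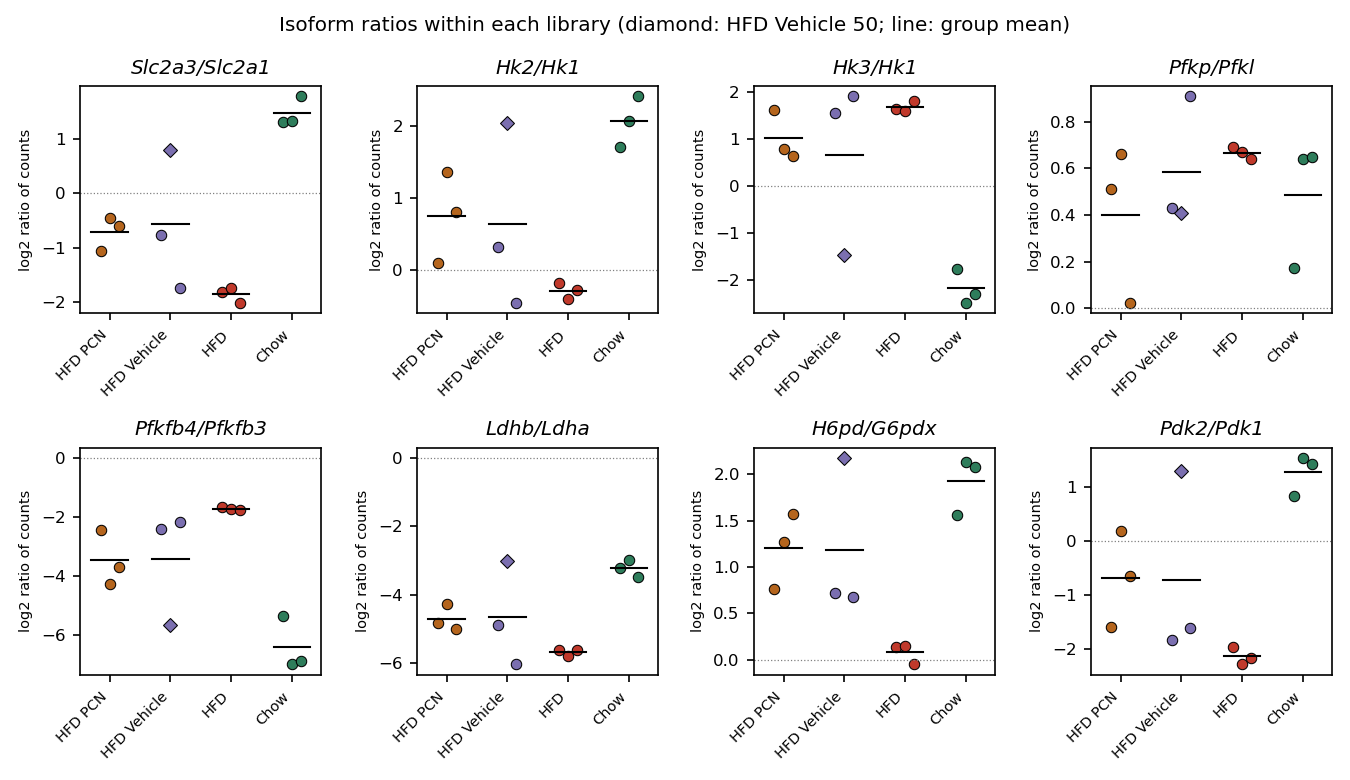
Log2 ratio of counts of 2 members within each library (8 of the 17 ratios), with HFD PCN, HFD Vehicle, HFD and Chow from left to right; lines are group means and the diamond is HFD Vehicle 50. HFD and Chow do not overlap except for Pfkp over Pfkl, and HFD Vehicle 50 lies with or near Chow, at 2.04 for Hk2 over Hk1 against -0.46 and 0.32 in the other HFD Vehicle libraries.

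Markers of cell types moved with the diet as well. All 10 macrophage markers rose, their sum lying at 11982 to 13519 CPM in HFD and 537 to 1521 CPM in Chow, with the macrophage surface gene Adgre1 at 938 ± 24.97 CPM in HFD libraries and 49.4 ± 24.5 CPM in Chow. Of 10 adipocyte markers 9 fell (sums of 7297 to 9149 CPM in HFD and 19610 to 23889 CPM in Chow), and all 6 endothelial markers fell (414 to 431.5 CPM in HFD, 1279 to 1341 CPM in Chow). All 6 markers of dividing cells rose (451 to 547 CPM in HFD, 55.7 to 91.1 CPM in Chow) and 5 of 6 of fibroblasts and progenitors rose (8657 to 9986 CPM in HFD, 1803 to 3302 CPM in Chow). Of 5 muscle markers tested 3 rose and 1 fell, of 4 neutrophil markers 1 rose, and of 6 red cell markers 2 fell. Muscle, neutrophil and red cell markers summed to 22.0 to 38.1, 17.6 to 20.9 and 199 to 322 CPM in HFD, against 56.7 to 71.9, 7.53 to 18.7 and 263 to 744 CPM in Chow. The share of counts on mitochondrially encoded genes was 2.30% to 2.74% in HFD and 7.30% to 29.6% in Chow. The part of these marker and library differences in the changes of the members was not tested.

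Some members share reads with other genes, and whether counting used strand is not given in the sources. Over 10% of exon bases were overlapped by another gene for Gpi1 (11.5%, Gm26762), Pfkm (10.8%, Gm26513), Pkm (15.3%, Gm49759), G6pdx (13.6%, Ikbkg), Pgls (20.6%, Fam129c), Rpe (17.9%, Kansl1l) and Pdha1 (16.1%, Map3k15). A second measure was the share of 50-base stretches of a gene's transcripts that also occur in transcripts of other genes. It takes in near-identical copies and overlapping genes alike. It was 53.9% for Pgk1, 36.2% for Pgam1, 26.0% for Eno1, 25.8% for Pkm, 24.7% for Gapdh and 21.0% for Ldhb. Values of these members are uncertain to that extent. For Pkm the gene sharing the most stretches was Gm49759, which also overlaps its exons, so both measures cover the same gene there. For Hk1, Hk2, Hk3, Slc2a1, Pfkfb4, Pdk1 and Pdk2 the share was 0%.

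Other genes of sugar metabolism, outside the 37, were set out in lists: of 73 tested, 14 rose and 25 fell in HFD (median log2 fold change -0.11). Of all 16216 genes tested 29.8% rose and 30% fell. Slc2a4 and Pck1, named below, also stand in the list of adipocyte markers. In the list of other sugar entry 7 of 14 fell and 2 rose. Slc2a4, the insulin-responsive glucose carrier of adipocytes, fell by 1.79 to 21.8 ± 2.14 CPM in HFD libraries, against 73.4 ± 11.5 CPM in Chow, Gys1, glycogen synthase, by 1.79 and Slc2a13, an inositol carrier, by 1.23. Of 13 other genes of glycolysis and gluconeogenesis 5 fell and none rose, among them Pck1, which makes phosphoenolpyruvate for glyceroneogenesis (153 ± 39.4 CPM in HFD libraries, 3463 ± 688 CPM in Chow), Gpd2 and Pfkfb1. Of 15 genes of pyruvate and lactate handling 3 rose, such as Emb, a partner protein of lactate carriers (log2 fold change 2.20), and Pdp1, the phosphatase that switches pyruvate dehydrogenase on (0.80), and 2 fell, with Ldhd at -1.38. Pdk4, the fourth kinase of that enzyme, was at 201 ± 4.06 CPM in HFD libraries and 303 ± 171 CPM in Chow, short of the threshold (edgeR adjusted p = 0.127). Among 8 neighbours of the pentose phosphate pathway 3 rose, with the NADPH-making Idh1 at 317 ± 10.2 CPM in HFD libraries and 103 ± 33.3 CPM in Chow and Prps1 up by 0.92, and 1 fell, Shpk (-0.73).

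Of 11 transcription factors and regulators of these genes 6 fell and 2 rose, against 30% and 29.8% of all genes tested. Mlxipl, the carbohydrate response factor ChREBP, fell to 15.1 ± 2.74 CPM in HFD libraries, against 92.3 ± 48.2 CPM in Chow (log2 fold change -2.66, SE 0.37, edgeR adjusted p = 4.84e-04). Its partner Mlx rose by 0.77 and its paralog Mlxip fell by 0.96. Hif1a, the hypoxia-inducible factor of many tissues, rose by 0.51 (136 ± 3.91 CPM in HFD libraries, 93.1 ± 16.5 CPM in Chow, edgeR adjusted p = 0.0109), and Epas1, its relative abundant in endothelium, fell by 1.98. Hypoxia targets outside glycolysis went both ways, 4 of 13 higher and 4 lower. Car9, a carbonic anhydrase, was at 4.07 ± 0.439 CPM in HFD libraries and 0.166 ± 0.0551 CPM in Chow, while Vegfa fell by 3.06 and Ndrg1 by 1.35.

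PCN was then set against its carrier in mice on the high-fat diet. No member passed in HFD PCN against HFD Vehicle: edgeR called 0 of 38 rows and 0% of all 16563 genes tested, DESeq2 and limma-voom called 0 members, and 0 members had an unadjusted p under 0.05. Among all genes 281 had an unadjusted p under 0.05 with edgeR and DESeq2 called 1. Log2 fold changes of the members ran between -0.66 (Aldoc) and 0.72 (Slc2a6), with a median SE of 0.30. The groups did not overlap in 2 rows, against 6.12% of all genes, and both were higher with PCN (3.43% of all genes were so, and 2.69% lower). Slc2a6 was at 2.42, 3.65 and 3.03 CPM in HFD PCN 5, 11 and 27, against 1.87, 1.19 and 2.40 CPM in HFD Vehicle 23, 50 and 55, and G6pdx was at 261, 290 and 255 CPM in HFD PCN, against 249, 170 and 255 CPM in HFD Vehicle. For G6pdx the lowest HFD PCN and the highest HFD Vehicle library nearly touched, and its log2 fold change was 0.26 (SE 0.22, edgeR adjusted p = 0.9999), or 0.09 without HFD Vehicle 50. For Slc2a6 the log2 fold change was 0.72 with all libraries and 0.5039 without HFD Vehicle 50, short of the threshold in both fits.

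Among the members the smallest unadjusted p was that of Slc16a1, the lactate and ketone body carrier, at 0.0709. It was at 66.7, 52.5 and 91.3 CPM in HFD PCN 5, 11 and 27, against 46.9, 27.2 and 56.1 CPM in HFD Vehicle 23, 50 and 55 (log2 fold change 0.70, SE 0.32, edgeR adjusted p = 0.9999). HFD PCN 11 lay below the highest HFD Vehicle library, so the groups overlapped, and without HFD Vehicle 50 the log2 fold change was 0.45.

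The wide SE went with HFD Vehicle 50. Hk3 was at 198, 101 and 87.5 CPM in HFD PCN 5, 11 and 27, against 185, 20.2 and 276 CPM in HFD Vehicle 23, 50 and 55. Pdk2 was at 19.4, 35.4 and 27.5 CPM in HFD PCN, against 18.9, 56.9 and 17.3 CPM in HFD Vehicle. In both genes HFD Vehicle 50 lay outside the range of the 5 other libraries and near Chow. Of the 30 members called between HFD and Chow, HFD Vehicle 50 was nearer to the Chow mean than to the HFD mean in 29, against 6 for HFD Vehicle 23, 4 for HFD Vehicle 55 and 6, 18 and 14 for HFD PCN 5, 11 and 27. On a line from the Chow mean (0) to the HFD mean (1) its median position over these genes was 0.0922. HFD Vehicle 23 and 55 stood at 0.672 and 0.929, and HFD PCN 5, 11 and 27 at 0.746, 0.465 and 0.552. These genes were chosen for a difference between the same HFD and Chow libraries, and counts and positions over all genes were not computed.

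Without HFD Vehicle 50 edgeR again called 0 members (smallest adjusted p = 0.8001), and 10 of 38 rows had another sign. With 3 libraries against 2, the groups did not overlap in 13 rows, against 21.2% of all genes, with HFD PCN above HFD Vehicle in 5 (11% of all genes) and below it in 8 (10.2%). Hk2 was then at 0.67 in place of -0.19, Pfkfb3 at 0.60 in place of -0.18, Ldhb at 0.60 in place of -0.19 and Pdk2 at 0.60 in place of -0.17, as log2 fold changes of HFD PCN over HFD Vehicle. Hk3 was at -0.84 (SE 0.37) in place of -0.31 (SE 0.83), and the median SE of the members was 0.22. Unadjusted p fell under 0.05 in 3 members without this library: Pfkfb4 (-0.60), Eno2 (-0.69) and H6pd (0.64). Of all 16873 genes tested in that fit, 898 had such a p. Macrophage markers summed to 4396 to 10723 CPM in HFD PCN and 9596 and 12210 CPM in HFD Vehicle 23 and 55, and adipocyte markers to 7569 to 15621 CPM in HFD PCN and 9226 and 6475 CPM in HFD Vehicle 23 and 55; their part in these values was not tested.

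**Figure D5:**
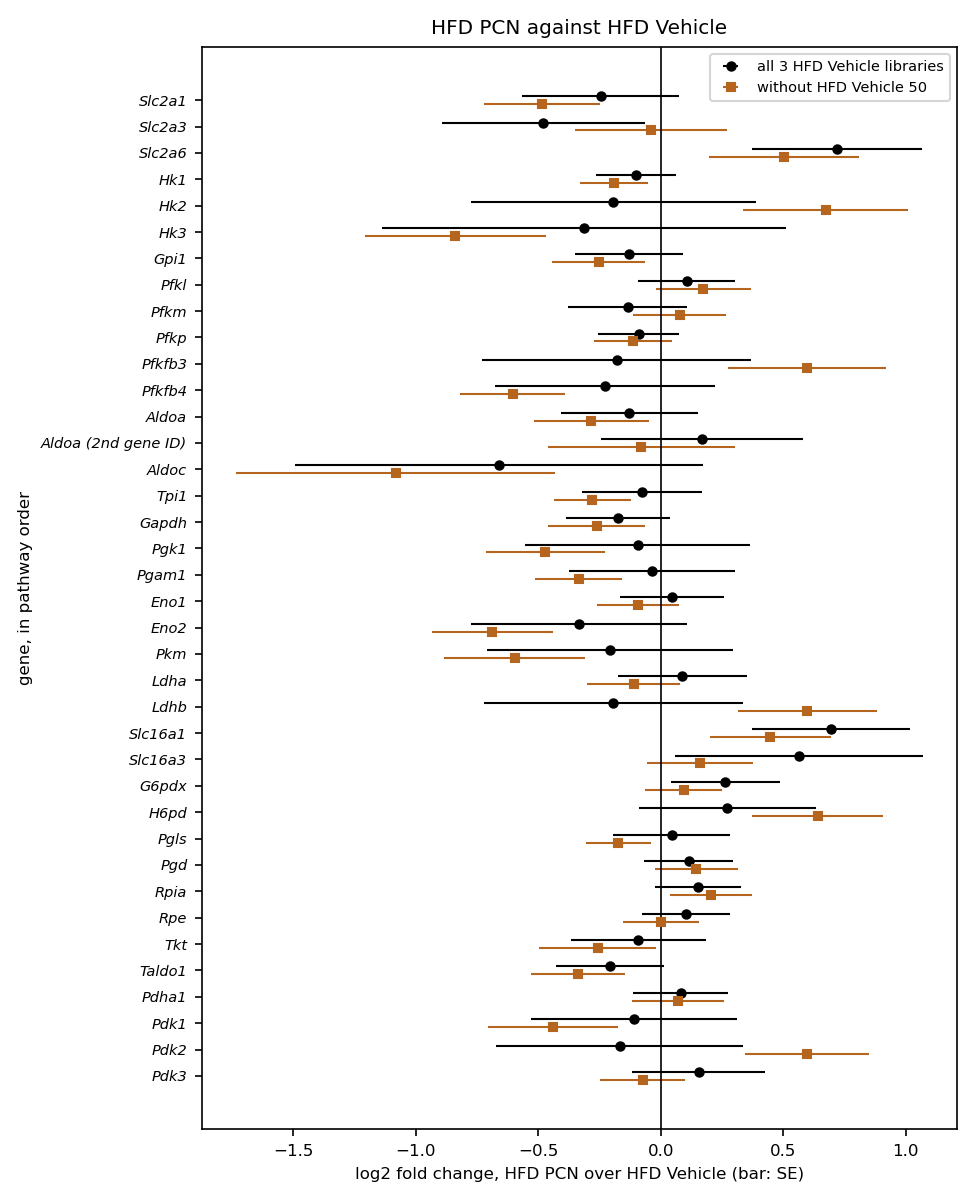
Log2 fold change of HFD PCN over HFD Vehicle with its standard error (bars) for the 38 rows, with all 3 HFD Vehicle libraries (black circles) and without HFD Vehicle 50 (brown squares). No row passed in either fit, and Hk2, Pfkfb3, Ldhb and Pdk2 lie left of 0 with all libraries and right of it without HFD Vehicle 50.

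Of the 17 ratios 1 did not overlap between HFD PCN and HFD Vehicle, Slc2a6 over Slc2a1, at -2.43 ± 0.612 with PCN and -3.41 ± 0.170 with vehicle (exact permutation p = 0.1, the smallest possible, adjusted p = 0.956). With a pseudocount of 5 counts it overlapped, and without HFD Vehicle 50 there were 5 ratios without overlap. Levels of single genes did not overlap in 6.12% of all genes with all libraries. Without HFD Vehicle 50, with 3 libraries against 2, the share was 21.2%. Among the 74 other genes of sugar metabolism tested 0 passed. Slc2a4 was at 58.2 ± 26.9 CPM in HFD PCN and 53.2 ± 37.2 CPM in HFD Vehicle, Mlxipl at 52.9 ± 21.5 CPM in HFD PCN and 65.2 ± 69.3 CPM in HFD Vehicle, Hif1a at 115.5 ± 2.42 CPM in HFD PCN and 110 ± 24.4 CPM in HFD Vehicle, and Pdk4 at 281 ± 8.57 CPM in HFD PCN and 195 ± 59.6 CPM in HFD Vehicle. Without HFD Vehicle 50 the HFD Vehicle mean was 33.9 CPM for Slc2a4, 25.2 CPM for Mlxipl, 123 CPM for Hif1a and 229 CPM for Pdk4.

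Shares of isoforms in HFD Vehicle depended on HFD Vehicle 50. Per kilobase Hk3 made 56.9% of the hexokinases in HFD PCN and 54.2% in HFD Vehicle, or 75.9% without HFD Vehicle 50, which stood at 10.8%. Hk2 made 31.1% in HFD PCN and 34.9% in HFD Vehicle, or 14.2% without that library. The means of both injected groups were thus close with HFD Vehicle 50. Without it the means were apart, but the levels of Hk3 and of Hk2 still overlapped between the groups. In HFD PCN the SD was 14.8% for the share of Hk3 and 13.7% for that of Hk2. Pdk2 made 44.8% of the 3 pyruvate dehydrogenase kinases in HFD PCN and 45.7% in HFD Vehicle, or 30.8% without HFD Vehicle 50. H6pd made 57.5% of the pair with G6pdx in HFD PCN and 56.7% in HFD Vehicle, or 48.8% without it. Among the glucose carriers Slc2a1 made 66.4% in HFD PCN and 68.0% in HFD Vehicle, or 76.2% without HFD Vehicle 50. Slc2a6 made 13.8% in HFD PCN (SD 4.18%) and 6.87% in HFD Vehicle, or 7.6% without HFD Vehicle 50. Its share was 8.53% in HFD and 4.70% in Chow (SD 3.005%). The level of Slc2a6 itself was close in HFD PCN (3.03 CPM) and HFD (3.1 CPM). Slc2a1, which enters the same sum, was at 16.64 CPM in HFD PCN and 32.05 CPM in HFD. For the phosphofructokinases Pfkl made 50.5% in HFD PCN and 47.0% in HFD Vehicle, or 46.8% without HFD Vehicle 50. These shares were not tested.

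Injected and untreated mice on the high-fat diet differ by the injections, and their libraries stand in separate tables, so injection and table cannot be told apart. In HFD Vehicle against HFD, fitted over 12 libraries on the genes listed in both tables, edgeR called 0 of 38 rows and 0% of 17304 genes, of which 2649 had an unadjusted p under 0.05. The groups did not overlap in 21 rows, against 27.8% of all genes. HFD Vehicle lay above HFD in 3 rows (13.6% of all genes) and below it in 18 (14.2%). Unadjusted p was under 0.05 in 12 rows, and without HFD Vehicle 50 in 6 rows and in 1010 of 17653 genes. Taldo1, transaldolase, had the smallest p, at 167, 132 and 183 CPM in HFD Vehicle 23, 50 and 55, against 292, 248 and 299 CPM in HFD 4, 30 and 38. All HFD Vehicle libraries lay below all HFD libraries (log2 fold change -0.80, SE 0.20, edgeR adjusted p = 0.294). Without HFD Vehicle 50 the log2 fold change of Taldo1 was -0.67 (edgeR adjusted p = 0.733), and the groups did not overlap in 21 rows again, against 34.9% of all genes, 3 higher (17.6%) and 18 lower (17.3%). With all libraries DESeq2 called 213 genes and among the members Taldo1 (-0.81, DESeq2 adjusted p = 0.0281), and without HFD Vehicle 50 no member. Pdk2, H6pd and Pfkfb3 were the 3 rows with HFD Vehicle above HFD, at 31.0 ± 22.4, 527 ± 208 and 574 ± 417 CPM in HFD Vehicle, against 12.1 ± 1.05, 291 ± 16.6 and 263 ± 7.72 CPM in HFD. Without HFD Vehicle 50 their means in HFD Vehicle were 18.1 CPM for Pdk2, 407 CPM for H6pd and 334 CPM for Pfkfb3. Their log2 fold changes were 1.35, 0.86 and 1.13 with all libraries and 0.59, 0.49 and 0.35 without that library.

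HFD PCN against Chow sets another group on the high-fat diet against the same Chow libraries, so it is no independent repeat of the diet comparison, and diet and treatment differ together. EdgeR called 10 of 38 rows, 8 higher and 2 lower in HFD PCN, or 26.3% of the rows against 16% of 17304 genes (11.3% higher and 4.77% lower). The groups did not overlap in 19 rows, against 46.1% of all genes, 12 with HFD PCN above Chow (26% of all genes) and 7 with HFD PCN below it (20%). The called rows that were higher were Aldoc (log2 fold change 3.79, SE 1.08), Hk3 (3.56, SE 0.73), Slc16a3 (1.93, SE 0.59), Eno2 (1.87, SE 0.39), Pfkfb4 (1.38, SE 0.43), Pkm (1.32, SE 0.41), Slc2a6 (1.29, SE 0.37) and Pgls (0.63, SE 0.19), with edgeR adjusted p between 0.0232 and 0.0490. Slc2a3 (-1.80, SE 0.38) and Pdk2 (-1.48, SE 0.41) were lower. Side by side, Hk3 changed by 3.56 in HFD PCN and by 4.47 in HFD against the same Chow libraries, Pkm by 1.32 in HFD PCN and by 2.20 in HFD, and Pdk2 by -1.48 in HFD PCN and by -2.70 in HFD; whether these differ was not tested.

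Aldoc had 52, 31 and 5 counts in HFD PCN 5, 11 and 27, against 2, 0 and 1 counts in Chow 8, 17 and 19. Pkm was at 663, 391 and 413 CPM in HFD PCN, against 244, 189 and 155 CPM in Chow, Eno2 at 20.8, 15.4 and 12.4 CPM in HFD PCN, against 3.96, 3.53 and 5.94 CPM in Chow, and Slc16a3 at 7.25, 5.503 and 6.45 CPM in HFD PCN, against 2.99, 0.401 and 1.60 CPM in Chow. None of these overlapped between the groups, and HFD PCN 5 was the highest library of its group in each. Slc2a3 was at 10.2, 12.1 and 7.90 CPM in HFD PCN, against 27.5, 26.6 and 51.6 CPM in Chow, Pfkfb4 at 56.4, 34.4 and 41.8 CPM in HFD PCN, against 25.3, 10.01 and 15.5 CPM in Chow, and Pgls at 42.6, 36.8 and 36.8 CPM in HFD PCN, against 26.4, 25.6 and 22.9 CPM in Chow.

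The calls of HFD PCN against Chow depended on single libraries, over all genes as well as in the members. With all libraries 2774 of 17304 genes were called. Without Chow 17, Chow 19, HFD PCN 5 or HFD PCN 27 no member was called, and 9, 3, 2 and 7 of all genes were. Without HFD PCN 11 there were 6 members (2 higher and 4 lower) and 2461 of 17749 genes. Without Chow 8 there were 9 members and 1873 of 17777 genes. Leaving HFD Vehicle 50 out of the joint fit, from which the spread is estimated, gave 18 members, 11 higher and 7 lower, while the share of all genes called was 38.5%. Under upper quartile scaling, 4 members were higher and 5 lower in HFD PCN, and 58.3% of all called genes were higher in place of 70.2%. H6pd, which fell in HFD, was at 635 ± 167 CPM in HFD PCN and 776 ± 140.5 CPM in Chow, short of the threshold (log2 fold change -0.29, SE 0.29, edgeR adjusted p = 0.466). Of the 73 other genes of sugar metabolism 7 were higher and 9 lower in HFD PCN than in Chow, against 11.3% and 4.77% of all genes.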

How the data were processed

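Counts of RNA sequencing reads were analysed for 12 libraries of mouse gonadal white adipose tissue in 4 groups of 3, grouped by the sample labels. The authors deposited 2 tables of whole-number counts per gene, one of HFD and Chow (30327 genes) and one of HFD PCN and HFD Vehicle (30453 genes). HISAT2, HTSeq, DESeq2 and the build GRCm38 (mm10) are named in the submitters' processing notes; versions and counting options are not given in the sources used here. The tables also hold, per the file headers, the authors' log2 fold changes, p-values and other scores from their own comparison, used here only as an alternative. Per-sample columns left unmatched numbered 0.

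Over all genes, counts went into edgeR 4.0.16 (quasi-likelihood test) in R 4.3.3, with genes kept by its default expression filter, TMM scaling and Benjamini-Hochberg adjustment at 0.05. HFD against Chow and HFD PCN against HFD Vehicle were fitted on their own 6 libraries, and both other comparisons in 1 fit of 12 libraries over the 28008 genes in both tables. Printed levels are CPM scaled over the 12 libraries, which lay above the scale of the 6 HFD and Chow libraries by a median of 0.03 on the log2 scale. Levels of different genes are compared per kilobase of merged exons. Ratios are log2 of counts + 0.5 within a library with an exact two-sided permutation test. Coordinates are 1-based, and 37 of the 38 member rows had the same coordinates as the annotation used here. The test was checked on simulated counts. Depth was 11090117 to 27408092 counts a library, and intervals cover counting error only.

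Members, gene lists, tests and alternatives were chosen with earlier results of these data known; fits without HFD Vehicle 50 by DESeq2 or in the joint fit were added after seeing the data. All members were named, the up to 12 called members with the largest change were given in every library, and of each other list up to 3 called genes with the smallest p, with Slc2a4, Pdk4, Hif1a, Mlxipl and Adgre1 always. Alternatives were DESeq2 1.42.0, limma-voom (limma 3.58.1), edgeR with DESeq2's size factors or with upper quartile scaling, mitochondrially encoded genes left out, all genes unfiltered, a floor of 1 CPM in 3 libraries, an adjusted p of 0.1, a test against a fold of 1.5, another choice of fitted libraries, the authors' deposited adjusted p-values, and each library left out.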

Additional observations from a re-analysis of the deposited data

How the results depend on the processing

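No paired analysis was possible because the groups compared share no replicate number. No called member changed direction under any alternative run, while 10 rows that did not pass changed sign in HFD PCN against HFD Vehicle without HFD Vehicle 50. In HFD against Chow, 18 of the 30 called members were called in all 17 alternatives. The test against a fold of 1.5 called 18 members, 12 of them higher, and 5430 of 16216 genes, against 9699 in the main test. With 1 library left out the counts of members were 26 to 34 in all, 20 to 27 higher and 6 to 7 lower. Over all genes the counts were then 7953 to 10889. In HFD PCN against HFD Vehicle all 18 alternatives gave 0 members, 1 of them (DESeq2 without HFD Vehicle 50) chosen after seeing the data. In HFD Vehicle against HFD only DESeq2 called a member, 1 lower, and 0 with 1 library left out. In HFD PCN against Chow the main test called 10 members (8 higher and 2 lower) and 2774 of 17304 genes. There limma-voom called 5 members, 3 higher and 2 lower, and DESeq2 called 14, 9 higher and 5 lower. Over all genes they called 1457 and 4526. Size factors of DESeq2 gave 6 higher and 4 lower, and a filter of 1 CPM 8 higher and 4 lower. Upper quartile scaling gave 4 higher and 5 lower, and no filter 5 higher and 2 lower. Over all genes these settings called 2735, 2771, 2823 and 2281. An adjusted p of 0.1 gave 16 with 6 lower, and 5161 of all genes. The test against a fold of 1.5 gave 0 in all, higher and lower, and 4 of all genes. A fit of only the 6 libraries gave 15 members, 9 higher and 6 lower, and 4424 of all genes in either direction. Leaving HFD Vehicle 50 out of the joint fit, chosen after seeing the data, gave 18 with 7 lower, and 6791 of 17653 genes. With 1 library of these groups left out the counts of members were 0 to 9 in all, 0 to 7 higher and 0 to 4 lower. Over all genes the counts were then 2 to 2461. Upper quartile scaling moved the median of all genes by -0.11 in that comparison. Ratios without overlap numbered 12 to 14 in HFD against Chow with 1 library left out, and in HFD PCN against HFD Vehicle 1 to 5, or 0 with a pseudocount of 5 counts. Members without overlap in HFD PCN against HFD Vehicle numbered 2, and 13 without HFD Vehicle 50, a count added after seeing the data. The cause of these changes was not tested. With 3 libraries a group the exact test cannot give a p under 0.1, and genes with few counts, such as Aldoc in Chow, have wide counting intervals.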
